A study of Mus musculus with 8 samples.

Results

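The Wnt pathway was examined in ventral prostates from FVB mice at 20 weeks of age, as 54 genes: a list of named components and every gene whose symbol starts with Wnt or Fzd followed by a digit. Of these, 53 genes were measured, out of 12393 named genes on the arrays, and Tcf7 is not analysed here. Each gene was read by the probe set that was named for that gene alone and had the highest mean over the 8 arrays. The 53 comprise 19 ligands, 13 receptors, 7 secreted antagonists, 7 genes of the cytoplasmic machinery and of ligand secretion, 3 nuclear cofactors and 4 genes that serve as readouts of pathway output.

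The study set 4 transgenic prostates, labelled as mouse prostatic intraepithelial neoplasia (a lesion of the glandular lining that precedes invasive cancer), against 4 wild type prostates labelled as normal. The transgene overexpresses p110 beta in an active form, according to the series design; p110 beta is one of the catalytic subunits of the lipid kinase PI3-kinase. The labels number both groups 1 to 4, and the question was which genes differ between the lesion and normal tissue. The promoter that drives the transgene, the number of founder lines and whether each array came from a separate mouse are not given in the sources used here, and a p-value therefore reflects only how far these arrays spread, part of which may be technical. Pik3cb, the gene of p110 beta, is not analysed here.

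Wnt proteins are secreted lipid-modified ligands that bind Frizzled receptors together with the co-receptors Lrp5 and Lrp6. Without a ligand, a complex of Axin, Apc and Gsk3b marks beta-catenin for destruction. With one, Dishevelled proteins inhibit that complex, beta-catenin enters the nucleus and it switches on genes through Tcf and Lef factors. In the prostate the pathway takes part in budding of the gland and in exchange between stroma and epithelium.

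Values are log2 RMA intensities, 1 per probe set and array, and each log2 fold change is the transgenic mean less the wild type mean. The tissue label was checked on its markers. The prostatic secretory genes Msmb and Pbsn averaged 11.66 ± 0.83 and 11.57 ± 0.45 in transgenic samples and 13.38 ± 0.22 and 12.85 ± 0.35 in wild type samples (SD, n = 4 each), while all 6 measured seminal vesicle markers lay below the median of every array. Array medians lay between 5.40 and 5.51. A gene is called dim below where both group means lay under 5.40, the lowest array median, since background can then set the value and small changes can be missed. Marker lists of several cell types held genes that passed the limma test given below. Over all genes, 5.99% passed as higher and 4.98% as lower, 11.0% in all, and 17.1% of genes that were not dim passed. Of the 7 prostatic secretory genes, none dim, 4 were lower and 1, Tmprss2, was higher, with list means of 10.60 to 11.03 in transgenic arrays and 11.23 to 11.45 in wild type arrays. Luminal epithelial markers were higher for 6 of 10 genes, with list means of 10.42 to 10.48 in transgenic arrays and 9.79 to 9.93 in wild type arrays. Basal epithelial markers were lower for 5 of 10 (5.44 to 5.54 against 5.90 to 6.07, and 5 of the 10 dim), smooth muscle markers for 3 of 12 (7.70 to 8.08 against 8.14 to 8.83, 1 dim) and fibroblast markers for 2 of 12 (5.99 to 6.19 against 6.07 to 7.29, 3 dim), transgenic arrays given before wild type arrays. The fibroblast list means overlapped between the groups. As a sign of RNA quality, control probe sets at the 3 prime end exceeded those at the 5 prime end by log2 differences between 0.97 and 1.40 in transgenic arrays and between 1.34 and 1.56 in wild type arrays. The parts of basal cells, luminal cells and RNA quality in the results were not tested. In bulk tissue, fewer cells of a type and less RNA per cell cannot be told apart.

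Most Wnt pathway genes did not pass the test. In limma with Benjamini-Hochberg adjustment over all probe sets, 3 members were higher in transgenic prostates, Dkk3, Sfrp2 and Fzd4, and 2 were lower, Axin2 and Lgr5. That is 5 of 53, or 9.43%, where 11.0% of all named genes passed. Higher members were 3 of 53, where 5.99% of all genes were higher, and lower members 2 of 53, where 4.98% were lower. The transgenic and wild type values did not overlap for 8 of the 53, or 15.1%, where 16.3% of all genes did not overlap. These shares lie near the background over all genes. All 5 called members were among the 24 that were not dim, and 17.1% of all genes that were not dim passed. Of the 53, 29 were dim, and 5040 of the 12393 genes were. The median log2 fold change was -0.10 over the members and -0.04 over all genes.

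**Figure D1:**
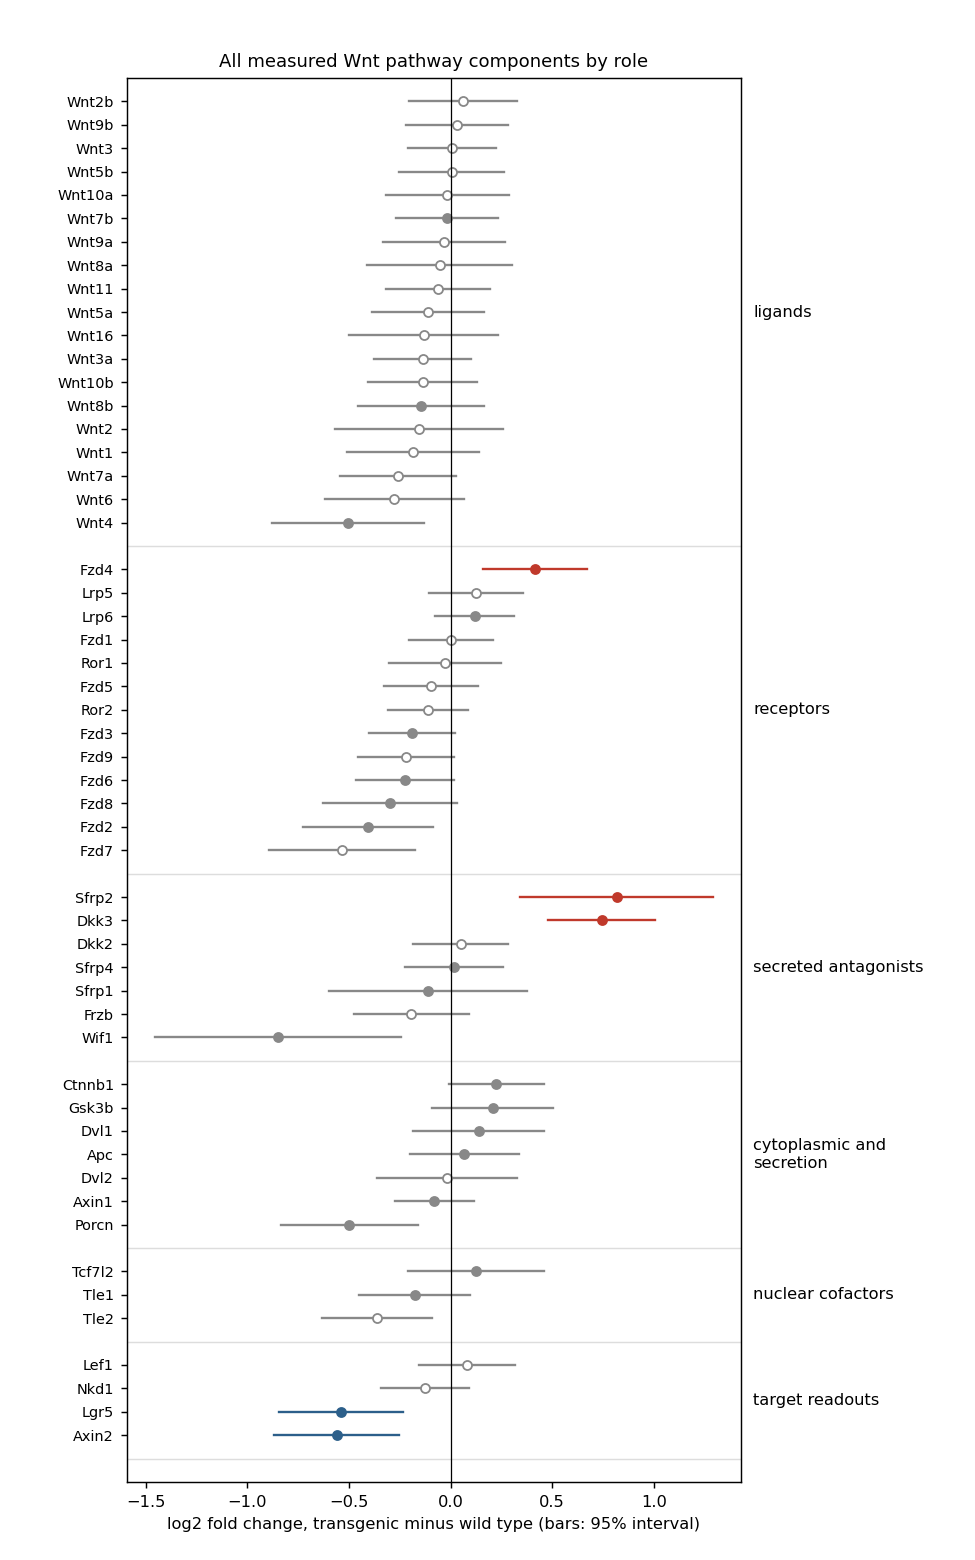
Log2 fold change, transgenic minus wild type, with its 95% interval from the limma fit, for all 53 measured Wnt pathway components grouped by role (red: higher with an adjusted p under 0.05; blue: lower; grey: not past the threshold; open symbols: dim genes). Fzd4, Sfrp2 and Dkk3 are the red symbols and Lgr5 and Axin2 the blue ones, while all ligand intervals are grey.

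Among the 19 ligands, none passed (1 had an unadjusted p under 0.05, and the same limma fit with array weights also called none). Over all genes 11.0% passed, and 17.1% of genes that were not dim. Of the 19, 16 were dim. The remaining 3 were Wnt4, Wnt7b and Wnt8b. Over all 19 the log2 fold changes ran from -0.51 to 0.06 with a median of -0.11, and their 95% intervals together spanned -0.88 to 0.33.

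Wnt4, a ligand with roles in the female reproductive tract and the kidney, read 5.77, 6.11, 6.30 and 6.17 in transgenic samples and 6.72, 7.01, 6.41 and 6.24 in wild type samples. Wild type array 4 lay just below transgenic array 3, and the other wild type values stood above every transgenic one. The difference of -0.51 ± 0.17 (SE, n = 4 each) was the largest among the ligands and missed the threshold (limma adjusted p = 0.0943). Without wild type array 4 it was -0.63 and passed (adjusted p = 0.0386), the case in which 1 ligand was called. A stromal score of each array, the mean deviation of 24 smooth muscle and fibroblast markers from their own means, ran from -0.42 to -0.18 in transgenic arrays and from -0.17 to 0.79 in wild type arrays. The groups did not overlap in this score, so fits with it, here and below, cannot cleanly separate stroma from genotype. A changed value or a lost call in those fits was therefore not read as an effect of stroma. With this score as a covariate the Wnt4 difference was -0.22 (adjusted p = 0.796).

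Wnt7b, an epithelial ligand of lung and other branching organs, lay well above the array medians and did not pass (adjusted p = 0.956). It read 7.05, 6.80, 6.80 and 6.92 in transgenic samples and 6.68, 6.88, 7.02 and 7.08 in wild type samples, a difference of -0.02 with a 95% interval from -0.27 to 0.23. Wnt8b averaged 5.33 ± 0.16 in transgenic samples and 5.47 ± 0.27 in wild type samples (SD, n = 4 each), close to the array medians. The dim ligands include Wnt5a, the main ligand of the beta-catenin-independent branch, at 3.83 ± 0.21 in transgenic samples and 3.94 ± 0.16 in wild type samples, and the classical ligands Wnt1 and Wnt3a, at 4.43 ± 0.11 and 4.16 ± 0.14 in transgenic samples and 4.62 ± 0.32 and 4.29 ± 0.14 in wild type samples (SD, n = 4 each).

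Wnt5b, a close relative of Wnt5a, gave different answers from its 2 probe sets. The probe set used differed by 0.00 (95% interval -0.25 to 0.26). The other read 3.22, 3.12, 3.44 and 3.38 in transgenic samples and 3.73, 3.63, 3.79 and 3.81 in wild type samples. That is lower in 4 of 4 transgenic samples by 0.45 on the log2 scale, with a limma adjusted p of 0.0171, but at values far below every array median.

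Among the 13 receptors and co-receptors, 1 was higher and none lower, or 7.69% called, near the 11.0% of all genes. Fzd4, the Frizzled receptor that also binds norrin in vessels, read 6.34, 6.59, 6.33 and 6.33 in transgenic samples and 6.13, 6.15, 5.79 and 5.85 in wild type samples. All transgenic values lay above all wild type values, and transgenic array 2 stood apart from the other transgenic arrays. The rise was 0.42 ± 0.12 (SE, n = 4 each), or 1.33-fold, with a limma adjusted p of 0.0456. It lies close to the threshold: leaving out any one transgenic array, or wild type array 3 or 4, ended the call, with adjusted p of 0.0626, 0.151, 0.0872 and 0.0849 without transgenic arrays 1 to 4 and 0.144 and 0.0963 without wild type arrays 3 and 4. With the stromal score in the fit Fzd4 was at 0.45 and did not pass either (adjusted p = 0.261). The second Fzd4 probe set was dim and differed by 0.13 (adjusted p = 0.525).

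No other Frizzled gene passed. Fzd2, a receptor found in many mesenchymal tissues, had 3 probe sets with differences of -0.41, -0.40 and -0.36, with adjusted p from 0.0861 to 0.118. The probe set used read 4.88, 5.01, 5.02 and 5.13 in transgenic samples and 5.07, 5.55, 5.78 and 5.27 in wild type samples. Wild type array 1 fell within the transgenic range, and without it Fzd2 passed, at -0.52 (adjusted p = 0.0276). Once the stromal score entered the fit, the Fzd2 difference was -0.12 (adjusted p = 0.887).

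Fzd7, a receptor of several epithelial stem cell compartments, read 5.10, 4.88, 4.77 and 4.32 in transgenic samples and 5.36, 5.08, 5.20 and 5.55 in wild type samples. The groups overlapped by a narrow margin, as transgenic array 1 lay above wild type array 2. The difference of -0.53 ± 0.16 (SE, n = 4 each) missed the threshold (adjusted p = 0.0648), passed without transgenic array 1 (-0.64, adjusted p = 0.0291), and was not shared by the second probe set, at 0.19. Both Fzd7 probe sets were dim.

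Fzd6, which acts mostly in planar cell polarity, averaged 8.75 ± 0.16 in transgenic samples and 8.98 ± 0.12 in wild type samples. Fzd8 averaged 5.96 ± 0.28 in transgenic samples and 6.25 ± 0.21 in wild type samples, and Fzd3 averaged 5.47 ± 0.13 in transgenic samples and 5.66 ± 0.02 in wild type samples (SD, n = 4 each). Their 95% intervals all included 0. The co-receptor gene Lrp6 read 7.99, 8.12, 8.07 and 7.99 in transgenic samples and 7.86, 7.90, 7.99 and 7.95 in wild type samples. The groups did not overlap, though by less than the spread within either of them, and the difference of 0.12 did not pass (adjusted p = 0.527; 95% interval -0.08 to 0.31). The co-receptor gene Lrp5, the Wnt5a receptor genes Ror1 and Ror2, and Fzd1, Fzd5 and Fzd9 were dim, with differences that did not pass.

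Among the secreted antagonists, differences lay in both directions, and the genes that passed with the probe set used were higher. Of 7 measured, 2 were higher, 0 lower and 5 did not pass, so 28.6% of this small group was called, where 11.0% of all genes were. Over the 7, 4 differences lay above 0 and 3 below, with a median of 0.02.

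Dkk3, a divergent member of the Dickkopf family that is widely expressed in prostate and often reduced in human prostate tumours, read 5.85, 5.66, 5.91 and 6.02 in transgenic samples and 4.95, 5.25, 4.97 and 5.32 in wild type samples. Every transgenic value lay above every wild type value. The rise was 0.74 ± 0.12 (SE, n = 4 each), or 1.67-fold, with a limma adjusted p of 0.00228, the smallest of any member. Its second, dimmer probe set rose as well, by 0.49 (adjusted p = 0.0196), and again the groups did not overlap. Leaving out each array in turn gave 0.69 to 0.81 with adjusted p of at most 0.0113, and once the stromal score entered the fit, the rise was 0.89 (adjusted p = 0.0188).

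Sfrp2, a secreted Frizzled-related protein mostly made by stroma, read 8.59, 8.91, 7.77 and 7.92 in transgenic samples and 7.34, 7.51, 7.58 and 7.51 in wild type samples. All transgenic values were above all wild type values, but transgenic arrays 1 and 2 stood well above transgenic arrays 3 and 4, while the wild type arrays lay close together. The rise was 0.82 ± 0.22 (SE, n = 4 each), or 1.76-fold (limma adjusted p = 0.0354). It missed the threshold without transgenic array 1 or 2 (adjusted p = 0.0814 and 0.0809) and without any one wild type array (adjusted p from 0.0648 to 0.0745), at log2 fold changes of 0.61 to 0.85 in those fits. With the stromal score as a covariate it was 0.76 (adjusted p = 0.320). Of the smooth muscle markers 3 of 12, and of the fibroblast markers 2 of 12, were called, all lower in transgenic samples, where 4.98% of all genes were lower. The part of stromal cells in the Sfrp2 rise was not tested.

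Wif1, the Wnt inhibitory factor that binds ligands outside the cell, had the largest difference of any member. It read 4.65, 5.29, 5.31 and 5.46 in transgenic samples and 6.26, 6.67, 6.001 and 5.18 in wild type samples. Wild type arrays 1 to 3 stood above all transgenic arrays, while wild type array 4 lay among them. The difference of -0.85 ± 0.28 (SE, n = 4 each) did not pass (limma adjusted p = 0.0823). Without wild type array 4 it was -1.13 and passed (adjusted p = 0.00683). With the stromal score as a covariate it was -0.39 (adjusted p = 0.772).

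Sfrp1, a Frizzled-related antagonist of prostate stroma, had 4 probe sets with differences that were all below 0. The probe set used read 6.31, 6.59, 6.39 and 6.22 in transgenic samples and 5.84, 6.51, 6.44 and 7.17 in wild type samples, a difference of -0.11 with a wide 95% interval from -0.60 to 0.38. The other 3 differed by -0.38, -0.23 and -0.60, and the last, a dim probe set, passed (adjusted p = 0.0256). The groups did not overlap for the first and the last of these. The probe set used, unlike the others, is of a type that may also bind other transcripts. The direction for the probe set used turned to higher without wild type array 4, at 0.12, and with the stromal score as a covariate, also at 0.12. Sfrp4 averaged 6.15 ± 0.05 in transgenic samples and 6.13 ± 0.19 in wild type samples (SD, n = 4 each), while Dkk2 and Frzb were dim.

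**Figure D2:**
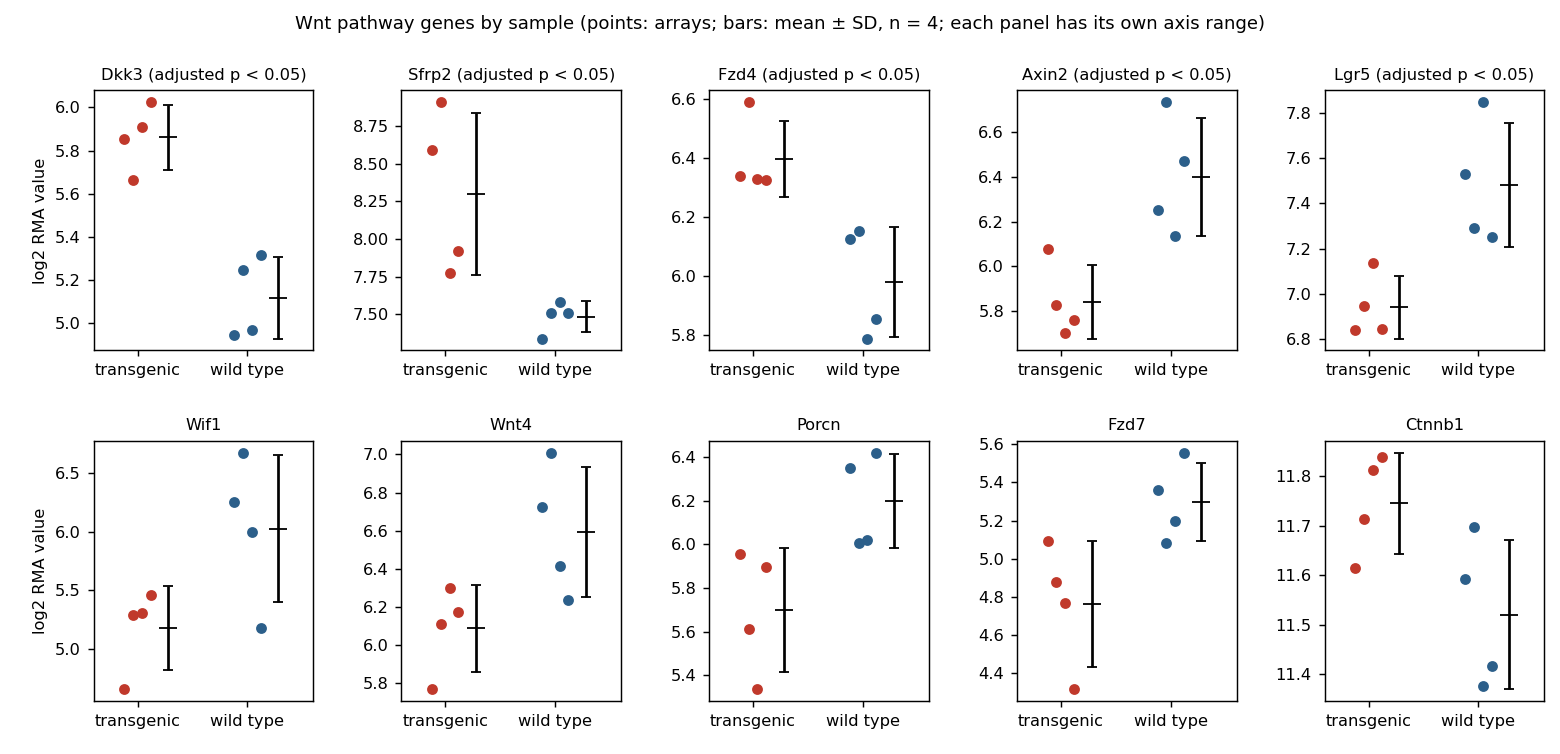
Log2 RMA values of 10 Wnt pathway genes in the 4 transgenic arrays (red) and 4 wild type arrays (blue), with mean and SD beside them; the axis range differs between panels. The groups do not overlap for Dkk3, Sfrp2, Fzd4, Axin2, Lgr5 and Porcn, and wild type array 4 holds the lowest wild type value of Wif1 and of Wnt4.

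The cytoplasmic machinery showed no called change. None of its 7 genes passed (1 had an unadjusted p under 0.05, and with array weights 1 was called, Porcn). As 11.0% of all genes passed, 7 genes are too few to read a share from. Ctnnb1, which encodes beta-catenin itself, read 11.62, 11.71, 11.81 and 11.84 in transgenic samples and 11.59, 11.70, 11.37 and 11.42 in wild type samples. Wild type array 2 lay above transgenic array 1, and the difference of 0.23 (95% interval -0.01 to 0.46) did not pass (adjusted p = 0.256). Its other 2 probe sets lay at 0.48 and 0.44, in the same direction, and did not pass either (adjusted p = 0.180 and 0.165). These are transcript levels, while the pathway acts on the stability of the protein.

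No gene of the destruction complex passed. Apc, the scaffold lost in many colon cancers, averaged 7.43 ± 0.15 in transgenic samples and 7.36 ± 0.19 in wild type samples. Axin1, the limiting scaffold of the complex, averaged 7.06 ± 0.05 in transgenic samples and 7.14 ± 0.07 in wild type samples. The kinase gene Gsk3b averaged 7.53 ± 0.23 in transgenic samples and 7.32 ± 0.18 in wild type samples (SD, n = 4 each), a difference of 0.21 (95% interval -0.09 to 0.50). The Dishevelled gene Dvl1 averaged 9.10 ± 0.12 in transgenic samples and 8.97 ± 0.31 in wild type samples (SD, n = 4 each), and Dvl2 was dim.

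Porcn, the acyltransferase that lipidates Wnt ligands before they leave the cell, read 5.95, 5.61, 5.34 and 5.90 in transgenic samples and 6.35, 6.004, 6.02 and 6.42 in wild type samples. The groups did not overlap, by a narrow margin between transgenic array 1 and wild type array 2. The difference of -0.50 ± 0.15 (SE, n = 4 each) missed the threshold (adjusted p = 0.0676), and it passed without transgenic array 1 (-0.58, adjusted p = 0.0432).

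None of the 3 nuclear cofactors passed (1 had an unadjusted p under 0.05, and array weights brought 1, Tle2, past the threshold). Here too the genes are too few to set against the 11.0% of all genes that passed. Tle2, a Groucho corepressor of Tcf factors, read 4.40, 4.06, 4.32 and 4.38 in transgenic samples and 4.92, 4.62, 4.60 and 4.47 in wild type samples. The groups did not overlap, but all these values are dim, and the difference of -0.36 did not pass (adjusted p = 0.0976). Tle1, another Groucho corepressor, averaged 8.48 ± 0.22 in transgenic samples and 8.66 ± 0.13 in wild type samples, and Tcf7l2, the Tcf factor best known from the intestine, averaged 6.62 ± 0.33 in transgenic samples and 6.50 ± 0.10 in wild type samples (SD, n = 4 each).

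Of the 4 measured readouts of pathway output, 2 were lower and 0 higher in transgenic prostates, where 4.98% of all genes were lower, and 4 genes are too few to read a share from. Axin2 is induced by beta-catenin in most tissues and feeds back on the pathway by rebuilding the destruction complex. It read 6.08, 5.83, 5.70 and 5.76 in transgenic samples and 6.25, 6.74, 6.14 and 6.47 in wild type samples. All transgenic values lay below all wild type values. Axin2 fell by 0.56 on the log2 scale (SE 0.14, n = 4 each; limma adjusted p = 0.0267), and was 1.47-fold higher in wild type. Its second probe set was dim and differed by 0.05, so the mean of both, at -0.26, did not pass (adjusted p = 0.174).

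Lgr5, a target of the pathway and a receptor for R-spondins that marks stem cells in the intestine and rare cells in the prostate, read 6.84, 6.95, 7.14 and 6.84 in transgenic samples and 7.53, 7.29, 7.85 and 7.25 in wild type samples. Again all transgenic values lay below all wild type values. Lgr5 fell by 0.54 on the log2 scale (SE 0.14, n = 4 each; limma adjusted p = 0.0307), and was 1.45-fold higher in wild type.

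Both calls lay near the threshold, and each was lost without any one of 5 arrays, in fits that also have fewer samples. Axin2 missed the threshold without transgenic array 2, 3 or 4 or wild type array 2 or 4, with adjusted p from 0.0590 to 0.0875 and log2 fold changes from -0.56 to -0.45. Lgr5 missed it without transgenic array 1, 2 or 4 or wild type array 1 or 3, with adjusted p from 0.0516 to 0.0916 and log2 fold changes from -0.54 to -0.42. With the stromal score as a covariate Axin2 was at -0.38 (adjusted p = 0.467) and Lgr5 at -0.61 (adjusted p = 0.178).

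The other 2 readouts were dim. Nkd1, a feedback inhibitor that binds Dishevelled, read 3.29, 3.25, 3.30 and 3.36 in transgenic samples and 3.35, 3.28, 3.48 and 3.59 in wild type samples. Lef1, a nuclear partner of beta-catenin that T cells also make, read 3.47, 3.45, 3.53 and 3.68 in transgenic samples and 3.26, 3.44, 3.66 and 3.44 in wild type samples. The groups overlapped for both. The T cell marker list gave no call among its 9 measured genes (0 with an unadjusted p under 0.05), 7 of which were dim, and its mean lay between 4.46 and 4.66 in transgenic arrays and between 4.40 and 4.86 in wild type arrays.

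**Figure D3:**
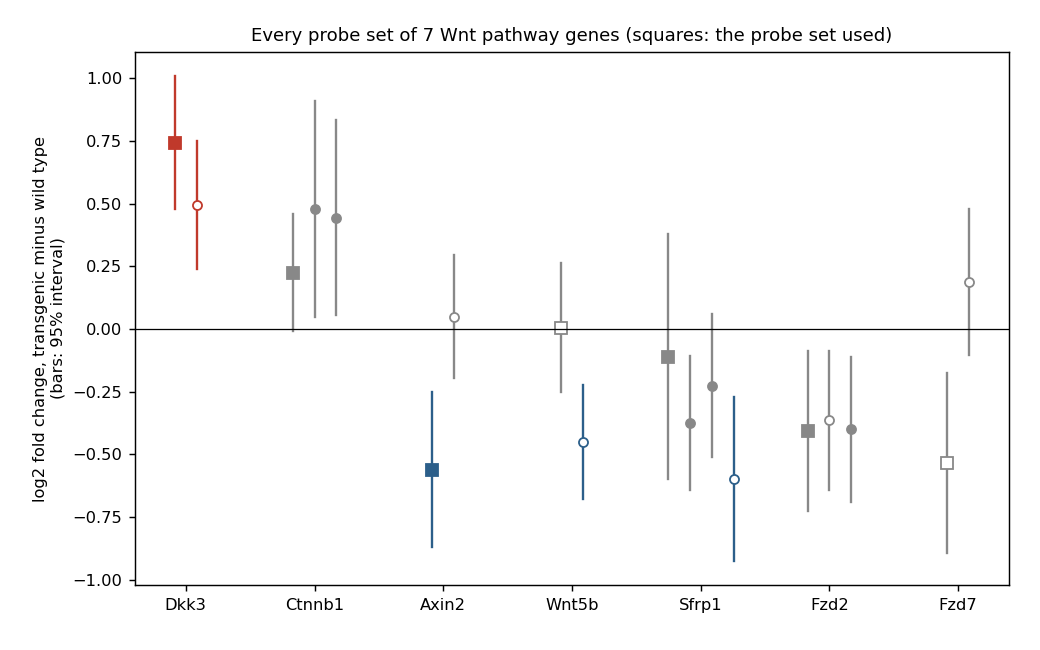
Log2 fold change, transgenic minus wild type, with its 95% interval for every probe set of 7 Wnt pathway genes (squares: the probe set used; circles: the others; red or blue: past the threshold; open symbols: dim probe sets). Both Dkk3 probe sets are past the threshold and all 3 Fzd2 probe sets lie below 0, while the probe sets of Axin2, Wnt5b and Fzd7 differ from each other.

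Over all probe sets named for 1 member, 8 of 83 passed, where 9.95% of all probe sets with 1 symbol did. Besides the 5 members already named, these were the second probe sets of Dkk3 and Wnt5b and the dimmest of the 4 Sfrp1 probe sets.

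Further genes of the pathway, from a list of regulators outside the members, gave few calls. Of 47 measured, 1 was higher, 1 lower and 45 did not pass, or 4.26% called, where 11.0% of all genes were. Dact1, a Dishevelled-binding regulator, read 6.93, 6.84, 6.79 and 6.96 in transgenic samples and 7.43, 7.24, 7.22 and 7.21 in wild type samples. The groups did not overlap, and Dact1 fell by 0.39 on the log2 scale (SE 0.10, n = 4 each; limma adjusted p = 0.0222), a call lost without transgenic array 2 or 3 or wild type array 3 (adjusted p = 0.0759, 0.0769 and 0.0513). Csnk1d, a casein kinase gene, read 9.78, 10.54, 10.37 and 10.21 in transgenic samples and 9.79, 9.85, 9.40 and 9.51 in wild type samples. It rose by 0.59 (adjusted p = 0.0437) in the probe set used, whose groups overlapped. That probe set is marked as shared, and its type may also bind unrelated transcripts. The other 4 Csnk1d probe sets lay between -0.04 and 0.17 and none passed. The Csnk1d call was lost without transgenic array 2, 3 or 4 or wild type array 3 or 4 (adjusted p from 0.0968 to 0.139). The R-spondin and ligand export genes on that list, such as Rspo1, Rspo2 and Wls, did not pass.

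Genes reported as targets of beta-catenin and Tcf in various tissues gave calls in both directions. Of 28 measured, 3 were higher, 1 lower and 24 did not pass, or 14.3% called, where 11.0% of all genes were, with a median of 0.04. Among the 14 that were not dim, only Tnfrsf19 and Sp5 passed, where 17.1% of all genes that were not dim did. The list was chosen with earlier results of these data known, so its share is not independent of them. The 2 largest rises were in Tnfrsf19 and Sp5. Both genes were chosen by the size of their change from that list, and such genes also respond to other pathways.

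Tnfrsf19, also known as Troy, a receptor of the tumour necrosis factor family that marks stem cells in several epithelia, read 8.19, 8.48, 8.50 and 8.57 in transgenic samples and 6.18, 6.75, 6.13 and 6.63 in wild type samples. The groups lay far apart. The rise was 2.01 ± 0.15 (SE, n = 4 each), or 4.04-fold (limma adjusted p = 1.09e-05). Of its other 2 probe sets, 1 rose by 0.90 (adjusted p = 0.00275) and 1, dim, differed by 0.37 and did not pass (adjusted p = 0.183).

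Sp5, a zinc finger factor that beta-catenin induces directly and that acts back on Wnt target genes, read 6.60, 6.99, 6.97 and 7.07 in transgenic samples and 5.48, 5.61, 5.37 and 5.57 in wild type samples. Again the groups lay far apart. The rise was 1.40 ± 0.12 (SE, n = 4 each), or 2.63-fold (limma adjusted p = 2.23e-05). Once the stromal score entered the fit, the rises were 2.34 for Tnfrsf19 and 1.53 for Sp5, and both passed.

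The other 2 called genes of the list were dim, and their groups did not overlap. Birc5, the survivin gene of dividing cells, read 4.49, 4.46, 4.49 and 4.51 in transgenic samples and 3.68, 3.89, 4.13 and 4.16 in wild type samples, and rose by 0.52 (limma adjusted p = 0.0159). Tiam1, a Rac activator, read 3.65, 3.88, 3.89 and 3.97 in transgenic samples and 4.88, 4.50, 4.38 and 4.58 in wild type samples, and fell by 0.73 on the log2 scale (limma adjusted p = 0.00295). Birc5 was not past the threshold once the stromal score was in the fit (adjusted p = 0.108). The proliferative targets Ccnd1 and Myc did not pass. Ccnd1, encoding cyclin D1, averaged 7.34 ± 0.30 in transgenic samples and 7.87 ± 0.42 in wild type samples (SD, n = 4 each), with all 3 of its probe sets at negative values, -0.53, -0.39 and -0.31, that did not pass (adjusted p from 0.0683 to 0.146). Myc averaged 6.07 ± 0.15 in transgenic samples and 6.28 ± 0.28 in wild type samples, and Cd44 averaged 6.83 ± 0.33 in transgenic samples and 7.27 ± 0.40 in wild type samples (SD, n = 4 each), and neither passed (adjusted p = 0.476 and 0.253).

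**Figure D4:**
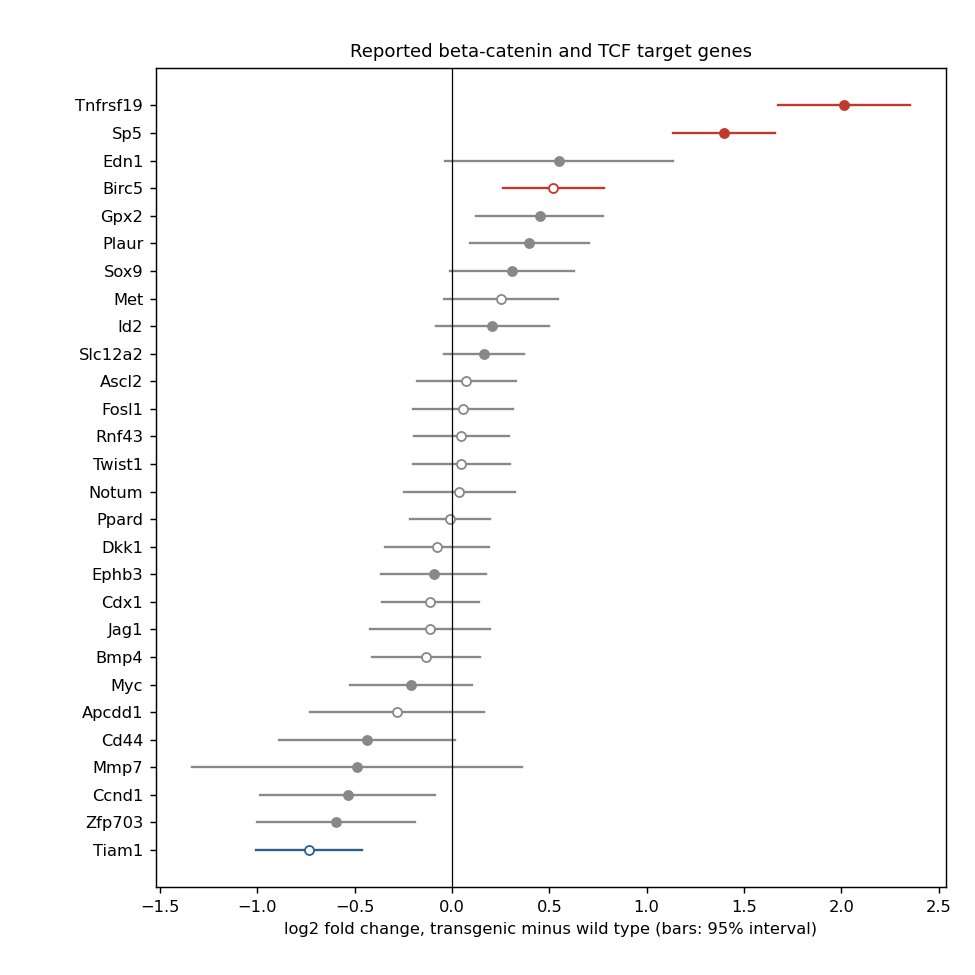
Log2 fold change, transgenic minus wild type, with its 95% interval for 28 genes reported as targets of beta-catenin and Tcf (red: higher; blue: lower; grey: not past the threshold; open symbols: dim genes). Tnfrsf19 at 2.01 and Sp5 at 1.40 stand apart at the top, and Tiam1 at -0.73 is at the bottom.

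The promoters of Axin2, which fell, and of Sp5 and Tnfrsf19, which rose, are shown because their calls were in opposite directions. Each is RefSeq sequence of GRCm38.p6, from 250 bases before to 50 after an annotated start, written 5′ to 3′ on the gene's strand. Axin2 lies at chr11:108920099-108920398 on the + strand, Sp5 at chr2:70474673-70474972 on the + strand, and a window of Tnfrsf19 at chr14:61037938-61038237 on the - strand. Capitals mark matches to the Tcf and Lef core motif, searched as AACAAAG (motif a), as ATCAAAG (motif b), as TACAAAG (motif c) and as TTCAAAG (motif d) on both strands, overlaps allowed.
Axin2: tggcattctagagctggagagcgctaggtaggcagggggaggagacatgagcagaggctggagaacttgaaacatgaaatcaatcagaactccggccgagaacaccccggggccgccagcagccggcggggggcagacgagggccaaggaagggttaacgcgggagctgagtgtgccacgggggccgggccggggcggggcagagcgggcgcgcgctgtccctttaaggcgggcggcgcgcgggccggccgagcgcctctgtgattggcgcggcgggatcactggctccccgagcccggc
Sp5: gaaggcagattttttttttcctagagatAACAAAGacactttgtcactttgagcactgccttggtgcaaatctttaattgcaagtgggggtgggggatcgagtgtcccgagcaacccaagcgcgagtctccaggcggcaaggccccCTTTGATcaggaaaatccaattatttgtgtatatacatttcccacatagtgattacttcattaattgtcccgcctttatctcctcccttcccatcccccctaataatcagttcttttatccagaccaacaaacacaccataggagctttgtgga
Tnfrsf19: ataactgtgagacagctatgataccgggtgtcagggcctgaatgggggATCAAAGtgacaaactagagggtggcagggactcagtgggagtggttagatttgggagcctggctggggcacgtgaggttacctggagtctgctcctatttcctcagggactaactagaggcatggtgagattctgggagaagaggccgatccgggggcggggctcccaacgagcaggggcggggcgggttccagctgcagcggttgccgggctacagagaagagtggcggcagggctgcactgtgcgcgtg
The Sp5 window held 2 matches, which began 222 and 104 bases before the start, where 1.94% of the 32851 windows in the RefSeq table held 2 or more. This Tnfrsf19 window held 1, beginning 202 bases before the start. The other Tnfrsf19 window, which is not printed, held none, so the printed one is the one with a match. The Axin2 window held no match to these motifs. It has a G and C content of 70.0%, against 45.0% for Sp5 and 60.7% for the printed Tnfrsf19 window. Each window covers only 250 bases before and 50 after a start, so matches elsewhere in these genes were not searched for. Whether the matches bear on the direction of the calls was not tested. Of 36 measured members with a window in the table, 6 held a match in at least 1 window, Fzd7, Lef1, Tcf7l2, Wnt3, Wnt5b and Wnt11. By window this was 6 of 44, or 13.6%, where 16.9% of all windows held one. None of these 6 genes passed with the probe set used, and of the 5 called members Axin2, Sfrp2 and Fzd4 had a window and no match in it. Sfrp2 and Fzd4 rose while Axin2 fell, so windows without a match went with calls in both directions.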

How the data were processed

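RNA from ventral prostate was run on 8 Affymetrix mouse arrays after biotin labelling, per the labels' protocols. The authors deposited log2 values from RMA, per the submitters' processing notes, so no count or read depth exists and precision rests on 4 arrays a group. RMA draws dim values together, which understates their fold changes. The table held 22690 probe sets, of which 64 were controls and not tested. Of the 22626 tested, 20380 had 1 symbol, 691 several and 1555 none in the platform annotation; symbols were updated through RefSeq (GRCm38.p6), where 29 had no entry. Transgenic and wild type arrays were compared with limma 3.58.1 (lmFit and eBayes, R 4.3.3), with no covariate and Benjamini-Hochberg adjustment over all tested probe sets at 0.05. The fit was tested on simulated data. Members and lists were chosen with earlier results of these data known. Called members were named with every array's value, as were Ctnnb1, Axin2, Nkd1, Lef1, Lgr5, the member with the smallest p in roles without a call, and the called genes of the other lists; further genes were named to show their values. Alternatives were other normalizations, filters on dim probe sets, array weights, a mean-variance trend, the mean of a gene's probe sets, leaving out shared probe sets, a replicate block, a stromal score and leaving out each array.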

Additional observations from a re-analysis of the deposited data

Results flagged for a closer look

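A sample stood far from the other 3 of its group in 5 of 106 gene and group combinations, by Dixon's test, and chance alone gives about 1 in 20. Fzd4 read 6.59 in transgenic array 2, where the other transgenic arrays lay between 6.33 and 6.34, and without that array its rise missed the threshold. The other 4 genes were dim. Wnt10a read 5.01 in transgenic array 1, where the others lay between 4.70 and 4.74. Wnt6 read 4.49 in transgenic array 4, where the others lay between 3.98 and 4.05. Fzd1 read 4.21 in transgenic array 2, where the others rounded to 4.31. Wnt2b read 4.18 in wild type array 4, where the others lay between 3.88 and 3.93.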

How the results depend on the processing

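Dkk3 stayed past the threshold in every alternative that measured it, as did Sp5 and Tnfrsf19. Higher members numbered 3, against 2 with the mean-variance trend and 1 with the replicate block or the stromal score. Lower members numbered 2, against 7 with array weights, 1 with the mean of a gene's probe sets and 0 with the stromal score. Calls among receptors numbered 1, against 3 with array weights and 0 with the mean-variance trend, the replicate block or the stromal score. Calls among secreted antagonists numbered 2, against 1 with the replicate block, the stromal score or without the dimmest 60% of probe sets, where 3 were measured. Calls among cytoplasmic genes numbered 0, against 1 with array weights or the replicate block, and among nuclear cofactors 0, against 1 with array weights. Calls among readouts numbered 2, against 1 with the mean of probe sets and 0 with the stromal score. Other pathway calls numbered 2, against 1 with the mean of probe sets or without shared probe sets and 0 with the replicate block or the stromal score. Reported targets had 4 calls, against 2 of 16 measured without the dimmest 40%. Not every changed number is given above. With array weights Wif1 also passed among antagonists, Ptk7 among other pathway genes, and Cd44 and Zfp703 among reported targets. The share of all genes called was not counted in these fits or in those below. A changed number is therefore not read as a result about the members. The cause was not tested.

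Leaving out each array in turn gave 1 to 2 higher members, 0 to 3 lower members, 0 to 1 call among ligands, 0 to 2 among receptors, 1 to 2 among antagonists, 0 to 1 among cytoplasmic genes, 0 among nuclear cofactors, 0 to 1 among readouts, 0 to 3 among other pathway genes and 4 to 5 among reported targets. Fits with 3 arrays in a group have fewer samples. Sfrp1, Wnt5b and Wnt7b, all near 0, changed sign and passed in none of these fits. Sfrp1 was at 0.12 with the stromal score and from -0.33 to 0.12 over the left-out arrays. Wnt5b was at -0.092 with array weights, at -0.22 with the mean of probe sets and from -0.070 to 0.079 over the left-out arrays. Wnt7b was at 0.0065 with the mean of probe sets, at 0.022 with the stromal score and from -0.098 to 0.036 over the left-out arrays.

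The labels number the samples 1 to 4 in both groups, and the deviations of same-numbered samples gave mixed correlations (-0.31, 0.24, -0.20 and 0.33), so the numbers were not taken to pair the samples. With the replicate block Sfrp2 (adjusted p = 0.0514), Fzd4 (0.0517), Dact1 (0.0546) and Csnk1d (0.0648) missed the threshold and Porcn passed (0.0255). With array weights Porcn, Wif1, Tle2, Fzd7, Fzd2, Cd44, Ptk7 and Zfp703 passed, with adjusted p from 0.0126 to 0.0432. Values below the array medians limit what can be seen for 29 of 53 members.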
